A study of Homo sapiens with 12 samples.

Results

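The 8 genes described here form the core of the c-Jun N-terminal kinase (JNK) pathway. They were taken by symbol from the 10976 genes listed for every library, and all 8 were listed. They are the JNK genes MAPK8 (JNK1), MAPK9 (JNK2) and MAPK10 (JNK3), the kinases MAP2K4 and MAP2K7, and the scaffolds MAPK8IP1 (JIP1), MAPK8IP2 (JIP2) and MAPK8IP3 (JIP3). The scores of these genes were compared in human cerebral organoids (COs) with and without an edited *c-JUN* gene, on day 12 and day 24 of culture.

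In the pathway, stress and cytokine signals reach a chain of kinases in which MAP2K4 and MAP2K7 phosphorylate the JNKs. The active JNKs phosphorylate c-JUN, which gave the kinases their name, and also proteins of the neuronal cytoskeleton. JIP scaffolds hold the kinases of the chain together and link cargo to kinesin motors in axons. MAPK8 and MAPK9 are broadly expressed, whereas MAPK10 is known mainly from the nervous system.

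All COs came from the human embryonic stem cell line H1. WT stands for unedited H1, and KO#2 and KO#10 are 2 of its clones in which CRISPR-Cas9 was directed at *c-JUN*, and all were taken through neural differentiation into COs. Each line gave 2 libraries a day, hence 2 WT and 4 KO libraries on day 12 and on day 24, and RNA of 3 to 4 pooled COs made a library. The labels do not say whether the replicates came from separate cultures, so that the p-values measure only the spread between these libraries.

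The deposited value is a whole-number score per gene. Every library had a median score of 17 and a highest score of 5585, and the totals lay between 473637 and 483149, so that the scores had been made alike across libraries and the depth is unknown. JUN, the target of the edit, scored higher in KO libraries than in WT on both days. On day 12 its scores were 4 and 8 (WT), 19 and 18 (KO#2) and 14 and 13 (KO#10). On day 24 they were 13 and 15 (WT), 39 and 39 (KO#2) and 29 and 32 (KO#10). The score of the whole gene does not show the edit, and KO below means a library labelled KO. Markers of other cell types differed between the groups on day 24. The summed score of 12 neuron markers was 357 and 190 (WT), 1717 and 2121 (KO#2) and 443 and 1466 (KO#10). MAP2 alone gave 64 and 22 (WT), 668 and 1009 (KO#2) and 95 and 750 (KO#10) of these, and all 11 neuron markers tested were positive in KO against WT. Of these markers, ELAVL3, ELAVL4 and MAPT reached the score of 10 needed for a test only in KO libraries, so that their sign is a description. The 5 endoderm markers in the files summed to 6359 and 6435 (WT), 79 and 36 (KO#2) and 1114 and 33 (KO#10). AFP alone gave 5585 in each WT library, the highest score of any library, and 902 in replicate 1 of KO#10, and all 5 markers were negative in KO against WT. APOA1, RBP4 and SERPINA1 would not have been tested by their KO scores alone, so that their sign is also a description. The 6 mesenchyme markers summed to 2443 and 2070 (WT), 168 and 134 (KO#2) and 2890 and 152 (KO#10). The 7 pluripotency markers summed to 439 and 882 in WT and 38 to 60 in KO, the 7 epithelium markers to 674 and 907 in WT and 46 to 257 in KO, and the 8 neural progenitor markers to 722 and 546 in WT and 1000 to 1113 in KO. Although the labels give embryonic stem cells as the source, pluripotency markers were thus low in KO on day 24. Replicate 1 of KO#10 on day 24 stood apart from the other 3 KO libraries of that day, and results that rest on it are given with and without it. In such bulk RNA, fewer cells of a type and less RNA per cell cannot be told apart. The part of cell makeup in the results below was not tested.

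The 3 JNK genes are paralogs, and reads from their most conserved exons can be hard to place. The stretch that encodes the activation segment is shown, since it holds the sites that MAP2K4 and MAP2K7 phosphorylate. It was read from the GENCODE 29 transcripts (GRCh38) and lies within 1 coding exon of each gene, at chr10:48420221-48420283 on the plus strand for MAPK8, chr5:180249010-180249072 on the minus strand for MAPK9 and chr4:86101089-86101151 on the minus strand for MAPK10. Capitals mark the codons of the Thr-Pro-Tyr motif, the target of both activating kinases.
MAPK8: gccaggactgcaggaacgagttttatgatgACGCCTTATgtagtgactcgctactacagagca
MAPK9: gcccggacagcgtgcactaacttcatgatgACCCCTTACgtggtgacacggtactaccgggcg
MAPK10: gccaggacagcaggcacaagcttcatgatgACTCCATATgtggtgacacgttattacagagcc

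Over these 63 bases, MAPK8 differed from MAPK9 at 17 positions and from MAPK10 at 12, and MAPK9 differed from MAPK10 at 13. The longest run of identical bases between any transcripts of a pair was 32 bases for MAPK8 and MAPK9, 37 for MAPK8 and MAPK10, and 23 for MAPK9 and MAPK10. Reads longer than these runs hold at least 1 differing base.

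RefSeq promoter windows, which run from 250 bases before to 50 bases after a start (GRCh38.p14), were available for 7 of the 8 genes. They are shown because c-JUN binds DNA as part of dimers that read 2 short motifs, the cAMP response element (CRE), TGACGTCA, and the AP-1 site, TGANTCA. Both strands were searched, and neither motif contains the other. Among the 11 windows of these genes, a CRE was found for MAPK10 and MAPK8IP3 and an AP-1 motif for a second start of MAPK10. Of all 35116 windows in the table, 1.85% held the CRE and 7.71% the AP-1 motif. The 100 bases around each CRE follow, with the motif in capitals, from chr4:86360079-86360178 on the minus strand for MAPK10 and chr16:1706042-1706141 on the plus strand for MAPK8IP3.
MAPK10: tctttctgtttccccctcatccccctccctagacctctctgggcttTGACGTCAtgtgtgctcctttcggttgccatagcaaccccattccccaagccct
MAPK8IP3: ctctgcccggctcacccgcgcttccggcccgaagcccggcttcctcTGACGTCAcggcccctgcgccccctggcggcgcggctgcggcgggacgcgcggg

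The motif begins 79 bases before the start of MAPK10 and 107 bases before that of MAPK8IP3. These are matches of letters, and binding was not measured here.

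The genes varied to very different degrees across the 12 libraries. MAPK9 stayed between 14 and 23, MAP2K4 between 18 and 34, and MAP2K7 between 12 and 29. MAPK10 ranged from 7 to 266, a highest score 38.0 times the lowest. By the standard deviation of log2 (score + 1) over the libraries, MAPK8IP2 lay at percentile 98.1 and MAPK10 at percentile 96.5 of all genes, and MAPK9 at percentile 21.3. The plot of scores by line and day shows every value.

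**Figure D1:**
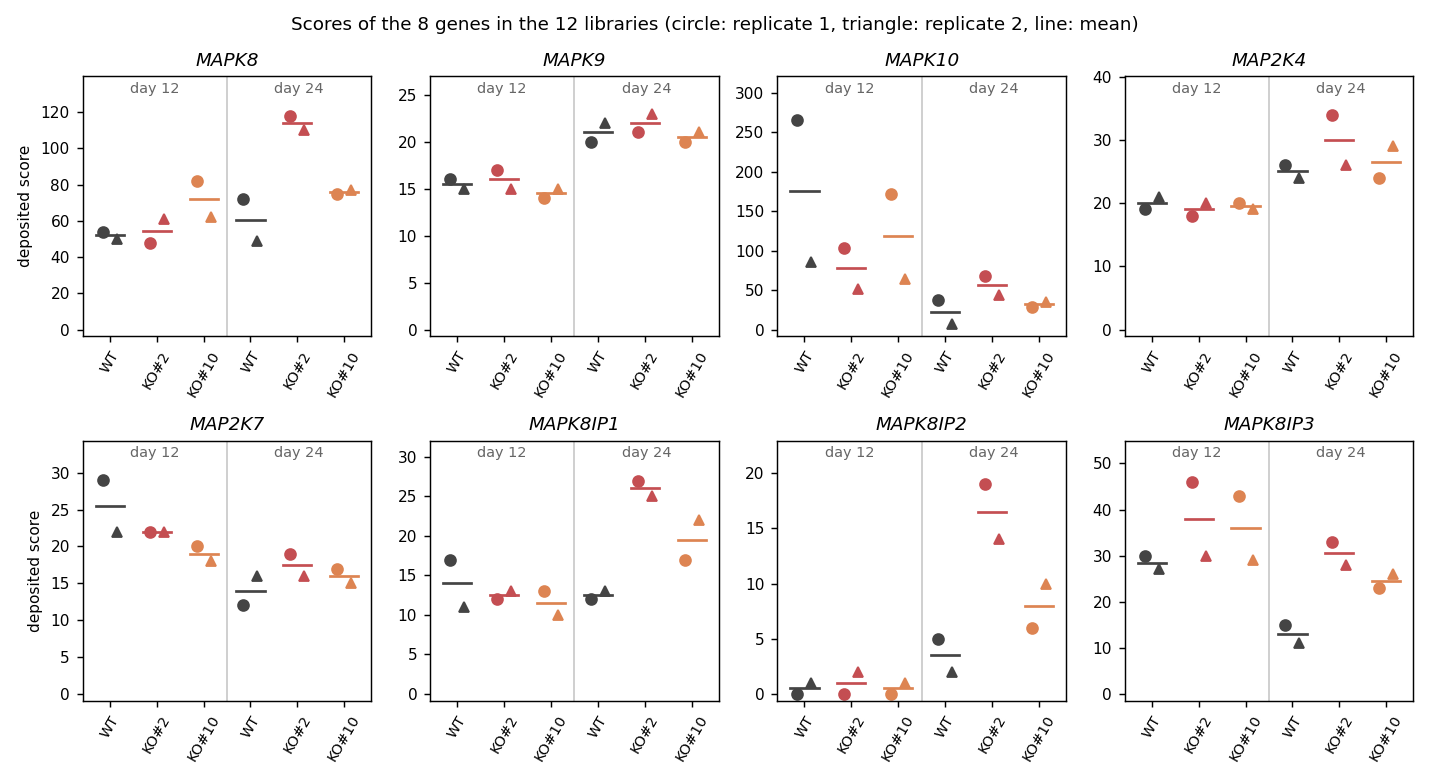
Deposited score (vertical axis, linear) of each of the 8 genes by line and day. Circles are replicate 1, triangles replicate 2 and short lines the mean of 2 libraries; MAPK8IP2 is at 0 to 2 in all day 12 libraries and reaches 19 on day 24, and MAPK9 separates the days and not the lines.

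MAPK8 encodes JNK1, a kinase found in most tissues. On day 12 its scores were 54 and 50 (WT), 48 and 61 (KO#2) and 82 and 62 (KO#10). On day 24 they were 72 and 49 (WT), 118 and 110 (KO#2) and 75 and 77 (KO#10). The groups overlapped on day 12. On day 24 both KO#2 libraries were above all other libraries of the series, while the KO#10 libraries were just above the higher WT library. In a limma fit across all genes on log2 (score + 1), which underlies every fold change and adjusted p here, KO against WT on day 24 gave a log2 fold change of 0.64 with a standard error (SE) of 0.25 and an adjusted p of 0.114. The day 12 difference was 0.25 (SE 0.20, adjusted p = 0.709). From day 12 to day 24, MAPK8 rose in KO by 0.58 (SE 0.20, adjusted p = 0.0366), under the 2-fold that a call required, and the change in WT was 0.19 (SE 0.28, adjusted p = 0.634). The difference between these day changes was 0.39 (SE 0.34, adjusted p = 0.556).

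MAPK9 encodes JNK2, the other broadly expressed JNK. Its scores on day 12 were 16 and 15 (WT), 17 and 15 (KO#2) and 14 and 15 (KO#10). On day 24 they were 20 and 22 (WT), 21 and 23 (KO#2) and 20 and 21 (KO#10). All 6 libraries of day 24 lay above all 6 of day 12, and the lines overlapped on both days. The rise was 0.45 on the log2 scale in KO (SE 0.10, adjusted p = 0.00542) and 0.41 in WT (SE 0.15, adjusted p = 0.0527), which missed the threshold in WT. KO against WT differed by 0.02 on day 24 (SE 0.13, adjusted p = 0.933) and by -0.02 on day 12 (SE 0.14, adjusted p = 0.973). MAPK9 thus had the smallest fitted KO to WT difference of the genes tested among the 8 on each day.

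MAPK10, which encodes JNK3, the neural JNK, was the most variable of the 3 kinases. On day 12 its scores were 266 and 86 (WT), 104 and 51 (KO#2) and 172 and 64 (KO#10). On day 24 they were 38 and 7 (WT), 68 and 44 (KO#2) and 29 and 35 (KO#10). Both WT libraries of day 24 lay below both of day 12, and in KO the days overlapped, since 68 in KO#2 on day 24 exceeded 51 and 64 on day 12. In WT the day change was -3.11 on the log2 scale (SE 0.74, adjusted p = 0.00927), a call. In KO it was -1.05 (SE 0.52, adjusted p = 0.129). When replicate numbers entered the fit as a block, the fall in KO had an adjusted p of 0.0349 and would be called, so that the KO change rests on how the replicates are treated. The difference between the 2 day changes was 2.06 (SE 0.90, adjusted p = 0.209), and KO against WT was -0.78 on day 12 (SE 0.55, adjusted p = 0.671) and 1.28 on day 24 (SE 0.61, adjusted p = 0.170).

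The replicates of MAPK10 differed widely within a line. On day 12, replicate 1 exceeded replicate 2 in each line, 3.09-fold in WT, 2.04-fold in KO#2 and 2.69-fold in KO#10. On day 24 the ratios were 5.43 in WT, 1.55 in KO#2 and 0.83 in KO#10, so that KO#10 went the other way. In a fit with line and replicate number as terms, added after the values were seen, replicate 2 of day 12 was lower than replicate 1 by a log2 of -1.35 (SE 0.14, adjusted p = 0.0244). MAPK10 was 1 of the 58 genes called between the replicate numbers of that day, 0.653% of 8885 tested, and none of the other 6 genes tested was called. On day 24 the same comparison gave -0.88 (SE 0.50, adjusted p = 0.559), and limma called 0 of 9289 genes (0.00%), with 991 at an unadjusted p under 0.05. What a replicate number stands for is not given in the sources used here. The fall of MAPK10 in WT was no longer called without replicate 1 of WT on day 12 (-2.30, adjusted p = 0.0975) or without replicate 2 of WT on day 24 (-1.97, adjusted p = 0.0961).

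**Figure D2:**
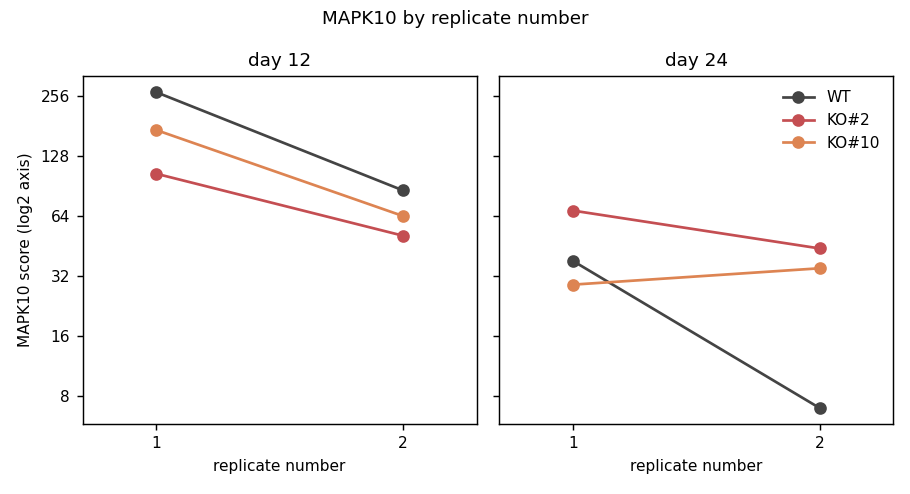
MAPK10 score (vertical axis, log2 spacing) against replicate number for WT, KO#2 and KO#10 on day 12 (left) and day 24 (right). Lines join the 2 libraries of a line; all 3 lines step down from replicate 1 to replicate 2 on day 12, from 266 to 86 in WT, while KO#10 goes from 29 to 35 on day 24.

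MAPK10 spans 604.6 kb on chromosome 4 (85990007 to 86594625, minus strand), with 116 protein-coding transcripts in GENCODE 29. Its interval overlaps those of PTPN13 and ARHGAP24 on the plus strand. ARHGAP24 scored 1 to 13. PTPN13 scored 38 to 88 and was also lower on day 24, by -0.86 in WT (adjusted p = 0.00736) and -0.60 in KO (adjusted p = 0.00488). The library kit keeps the strand, but whether the counting used it is not stated, and the part of reads from these neighbours was not tested.

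MAP2K4 (MKK4) phosphorylates the JNKs and can also act on p38 kinases. On day 12 it scored 19 and 21 (WT), 18 and 20 (KO#2) and 20 and 19 (KO#10). On day 24 it scored 26 and 24 (WT), 34 and 26 (KO#2) and 24 and 29 (KO#10). Like MAPK9, all libraries of day 24 were above all of day 12, and the lines overlapped on both days. The rise was 0.52 in KO (SE 0.12, adjusted p = 0.00533) and 0.31 in WT (SE 0.17, adjusted p = 0.184). KO against WT was -0.05 on day 12 (SE 0.13, adjusted p = 0.930) and 0.16 on day 24 (SE 0.16, adjusted p = 0.502).

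MAP2K7 (MKK7), which is specific to the JNKs, moved the other way with time. Its day 12 scores were 29 and 22 (WT), 22 and 22 (KO#2) and 20 and 18 (KO#10). On day 24 they were 12 and 16 (WT), 19 and 16 (KO#2) and 17 and 15 (KO#10). In WT the days were separate, and in KO the value of 19 on day 24 lay within the day 12 range. MAP2K7 fell in WT by 0.82 on the log2 scale (SE 0.19, adjusted p = 0.00897), less than 2-fold, and the change in KO was -0.28 (SE 0.14, adjusted p = 0.126). The interaction of genotype and day was 0.54 (SE 0.24, adjusted p = 0.206). KO against WT was -0.29 on day 12 (SE 0.16, adjusted p = 0.566) and 0.25 on day 24 (SE 0.17, adjusted p = 0.306). Within WT, MAP2K4 and MAP2K7 thus had fitted changes of opposite sign, of which that of MAP2K7 passed the test.

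Among the scaffolds, MAPK8IP1 encodes JIP1, which binds JNK, MAP2K7 and the light chain of kinesin. On day 12 it scored 17 and 11 (WT), 12 and 13 (KO#2) and 13 and 10 (KO#10). On day 24 it scored 12 and 13 (WT), 27 and 25 (KO#2) and 17 and 22 (KO#10). The lines overlapped on day 12, and on day 24 every KO library was above both WT libraries, with KO#2 above KO#10. KO exceeded WT on day 24 by 0.80 (SE 0.20, adjusted p = 0.0415), which passed the test but not the 2-fold rule. The adjusted p ranged from 0.00894 to 0.267 over the 15 alternatives run. The day change was 0.86 in KO (SE 0.17, adjusted p = 0.00236) and -0.12 in WT (SE 0.24, adjusted p = 0.729). The interaction was 0.98 (SE 0.29, adjusted p = 0.0933). Without replicate 1 of KO#10 on day 24 it was 1.11 (adjusted p = 0.0211), a call. Leaving out that library also took the interaction calls over all genes from 130 to 916.

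MAPK8IP2 encodes JIP2, a scaffold known mainly from brain. On day 12 it was listed at 0 and 1 (WT), 0 and 2 (KO#2) and 0 and 1 (KO#10). On day 24 its scores were 5 and 2 (WT), 19 and 14 (KO#2) and 6 and 10 (KO#10). Within each line both libraries of day 24 were above both of day 12, and every KO library of day 24 was above both WT libraries. The gene was too low to be tested on day 12. On day 24 it passed the filter (a score of at least 10 in at least 2 libraries) only through KO libraries. KO rose from day 12 to day 24 by 2.98 on the log2 (score + 1) scale (SE 0.51, adjusted p = 9.65e-04), the only call upward with time among the 8 genes in the fit of all libraries. Since only KO libraries of day 24 carried it past the filter, this rise had to be large to be tested at all and is given as a description. The change in WT was 1.59 (SE 0.71, adjusted p = 0.112), and the interaction was 1.39 (SE 0.88, adjusted p = 0.384). KO against WT on day 24 was 1.54 (SE 0.47, adjusted p = 0.0659), and without replicate 1 of KO#10 it was 1.81 (adjusted p = 0.0209). These differences are also a description, because the filter was met by the group with the higher scores. With scores this low, the added 1 takes up a large part of the fold change. The interval of MAPK8IP2 (chromosome 22, 50600793 to 50613981, plus strand) overlaps CHKB on the minus strand, which scored 15 to 25 and differed by 0.07 between KO and WT on day 24 (adjusted p = 0.755).

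MAPK8IP3 encodes JIP3, which carries JNK and vesicles along axons. On day 12 it scored 30 and 27 (WT), 46 and 30 (KO#2) and 43 and 29 (KO#10). On day 24 it scored 15 and 11 (WT), 33 and 28 (KO#2) and 23 and 26 (KO#10). The lines overlapped on day 12, and on day 24 the lowest KO library exceeded the higher WT library. The KO to WT difference on day 24 was 1.03 (SE 0.19, adjusted p = 0.0241), a call. MAPK8IP3 fell in WT between the days by 1.09 on the log2 scale (SE 0.25, adjusted p = 0.00770), also a call, and changed by -0.40 in KO (SE 0.17, adjusted p = 0.0894). The interaction was 0.69 (SE 0.30, adjusted p = 0.210), and KO against WT on day 12 was 0.34 (SE 0.21, adjusted p = 0.639). The fitted day changes of MAPK8IP3 were thus negative in WT and KO, those of MAPK8IP2 positive in both, and that of MAPK8IP1 positive only in KO. None of their interactions was called in the fit of all libraries, so that a difference between the day changes of WT and KO was not shown.

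The day 24 call of MAPK8IP3 stood near the 2-fold threshold. With a pseudocount of 5 in place of 1 it was 0.85 (adjusted p = 0.0220). Without any 1 of 5 of the 6 libraries the difference was 0.82 to 1.24, at or above 2-fold in 3 of the 5, while the adjusted p lay between 0.0517 and 0.252, and without replicate 1 of KO#10 the difference was 1.11 (adjusted p = 0.0108). The fall in WT was not called with a pseudocount of 5 (-0.90, adjusted p = 0.00945), without replicate 1 of WT on day 12 (-1.01, adjusted p = 0.0578) or without replicate 2 of WT on day 24 (-0.88, adjusted p = 0.0724). MAPK8IP3 (chromosome 16, 1706166 to 1770351, plus strand) overlaps NME3 on the minus strand, which scored 15 to 28 and differed by -0.26 between KO and WT on day 24 (adjusted p = 0.443).

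Counted together, none of the 7 genes tested on day 12 was called between KO and WT, where limma called 0.0900% of 8885 genes, 8 in all. None of the 7 had its KO libraries all above or all below WT, which 8.23% and 8.34% of the genes tested had. Within the replicate numbers of that day, which were taken as pairs, both KO libraries of each number were below WT for MAPK10 and above WT for MAPK8IP3. How many of all genes did so was not counted, and this order is given as a description. With the number as a block, limma called 71 genes in place of 8 and again none of the 7, with -0.78 for MAPK10 (SE 0.22, adjusted p = 0.120) and 0.34 for MAPK8IP3 (SE 0.13, adjusted p = 0.218). On day 24, 1 of the 8 was called higher (MAPK8IP3) and none lower, with 8.01% of 9289 genes called, 4.22% higher. An adjusted p under 0.05 was reached by 2 of the 8, against 14.6% of all genes. For 4 of the 8 (MAPK8, MAPK8IP1, MAPK8IP2 and MAPK8IP3) every KO library was above both WT libraries, against 22.2% of all genes. The fitted difference was positive for all 8 on day 24, with a median of 0.72, where the median of all genes was 0.01. Without MAPK8IP2, which met the filter only through KO, 7 of 7 were positive with a median of 0.64, and 3 of 7 had every KO library above both WT libraries. On day 12 it was positive for 2 of 7, with a median of -0.05.

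**Figure D3:**
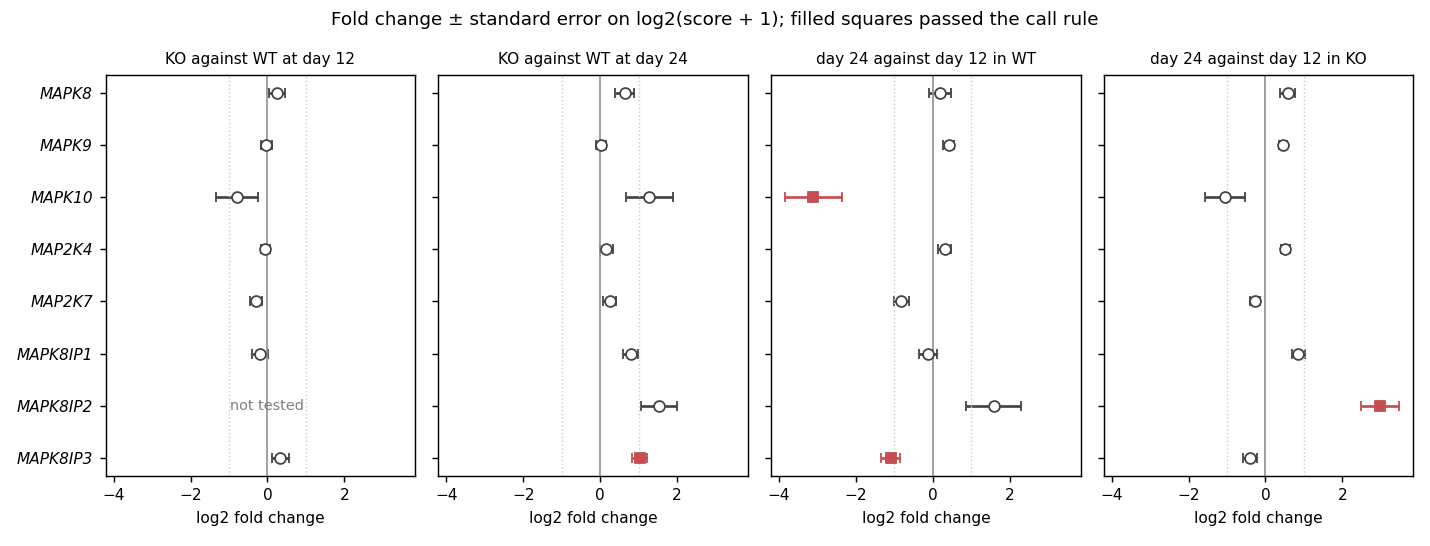
Fitted log2 fold change (horizontal axis, on log2 (score + 1)) with its standard error (bars) for each of the 8 genes in 4 comparisons. Filled squares passed an adjusted p under 0.05 and 2-fold, dotted lines mark 2-fold; MAPK8IP3 passed on day 24, MAPK10 and MAPK8IP3 fell in WT, and MAPK8IP2 rose in KO.

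Between the days, 2 of the 8 were called lower in WT (MAPK10 and MAPK8IP3) and none higher, where 15.1% of 9952 genes were called, 7.88% lower. An adjusted p under 0.05 was reached by 3 of the 8, against 29.5% of all genes. The WT libraries of the days were separate for 6 of the 8, with MAPK9, MAP2K4 and MAPK8IP2 above (32.1% of all genes) and MAPK10, MAP2K7 and MAPK8IP3 below (31.6%). In KO, 1 of the 8 was called higher and none lower, where 11.5% were called, 5.88% higher. There, 5 of the 8 passed the adjusted p, namely MAPK8, MAPK9, MAP2K4, MAPK8IP1 and MAPK8IP2, against 37.9% of all genes, and 4 (the same less MAPK8) had all 4 libraries of day 24 above all of day 12, against 16.0%. Without MAPK8IP2 these counts were 0 of 7 called, 4 passing the adjusted p and 3 with separate days. None was called in the interaction of genotype and day, where 1.31% of all genes were, although its fitted value was positive for all 8. The median was 0.62, where that of all genes was 0.02. MAPK8IP2 was tested there only through KO libraries of day 24, and without it 7 of 7 were positive with a median of 0.54. The comparisons share libraries, since the WT and KO libraries of day 24 enter both the KO to WT difference of that day and the day changes.

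Each clone was also compared with WT on day 24. In fits with the 3 lines apart, added after the values were seen, 3 of the 8 genes were called higher in KO#2 than in WT, where 9.00% of all genes were called, 4.74% higher. They were MAPK8IP2 (2.03, SE 0.43, adjusted p = 0.0428), MAPK8IP3 (1.18, SE 0.20, adjusted p = 0.0353) and MAPK8IP1, whose value of 1.00 lay on the threshold itself (SE 0.18, adjusted p = 0.0357). Of these, MAPK8IP2 had entered the test only through KO libraries. MAPK8 passed the adjusted p at 0.93 (SE 0.21, adjusted p = 0.0456). In KO#10 none of the 8 was called, where 0.280% of all genes were. There the values were 1.05 for MAPK8IP2 (SE 0.43, adjusted p = 0.213), 0.88 for MAPK8IP3 (SE 0.20, adjusted p = 0.0999), 0.59 for MAPK8IP1 (SE 0.18, adjusted p = 0.139) and 0.35 for MAPK8 (SE 0.21, adjusted p = 0.338). In the direct test of KO#2 against KO#10, limma called 0 of 8885 genes on day 12 and 0 of 9289 on day 24 (0.00% on each day), with 115 and 479 genes at an unadjusted p under 0.05. On day 24 that difference was 0.58 for MAPK8 (SE 0.21), 0.98 for MAPK8IP2 (SE 0.43), 0.41 for MAPK8IP1 (SE 0.18) and 0.30 for MAPK8IP3 (SE 0.20), each with an adjusted p of 0.825. All 4 were higher in KO#2, and a difference between the clones was not shown.

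The scaffold values ran beside the neuron marker sums on day 24. The libraries with the 3 highest sums (1717, 2121 and 1466) also had the 3 highest scores of MAPK8IP1 (27, 25 and 22) and of MAPK8IP2 (19, 14 and 10) in the series. On day 12, MAPK8IP3 scored 27 to 46 while the sums lay between 192 and 383, so that its high scores were not limited to libraries with high sums. MAPK10 had its highest score, 266, in the library with a sum of 192. Replicate 1 of KO#10 on day 24, with a sum of 443 and a mesenchyme sum of 2890, had the lowest MAPK8IP1, MAPK8IP2 and MAPK8IP3 scores among the KO libraries of its day (17, 6 and 23), each still above WT. The part of the neuron markers in these differences was not tested.

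**Figure D4:**
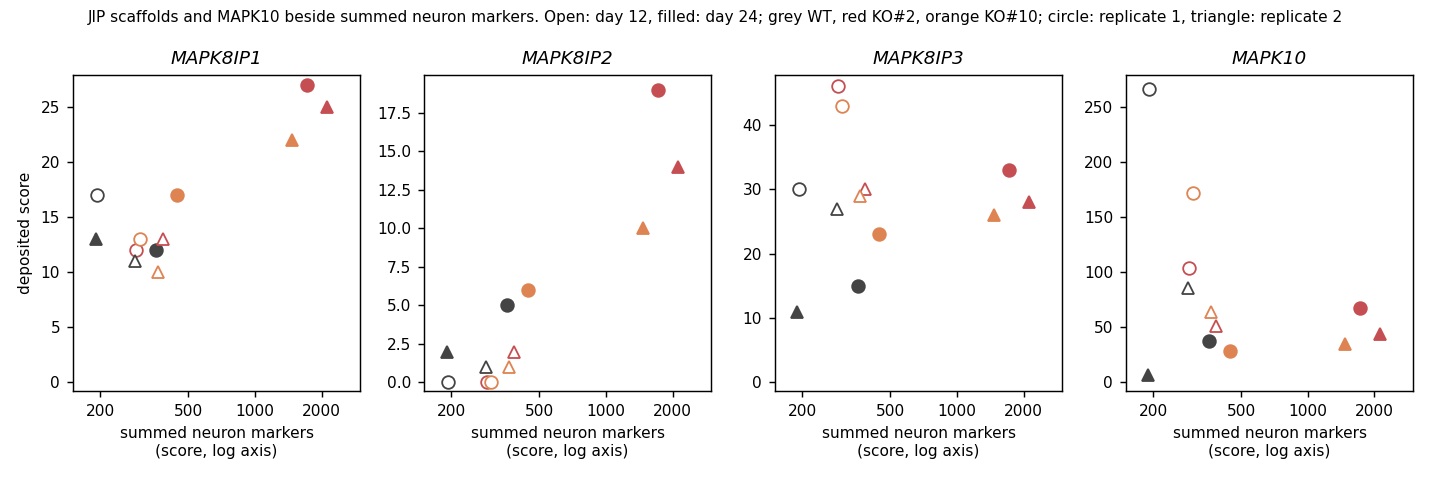
Deposited score (vertical axis) of MAPK8IP1, MAPK8IP2, MAPK8IP3 and MAPK10 against the summed score of 12 neuron markers (horizontal axis, log spacing) in the 12 libraries. Open symbols are day 12 and filled symbols day 24; the 3 libraries with sums over 1000 have the highest MAPK8IP1 and MAPK8IP2 scores, while MAPK8IP3 and MAPK10 have their highest scores in open symbols, at sums of 192 to 301.

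By the Pearson correlation of log2 (score + 1) over the 12 libraries, searched over 9952 genes, the genes most like each of the 8 were named as a description, since lines and days are shared by all genes. For MAPK8IP2 they were ISLR2 (0.985), REEP1 (0.966) and INSM1 (0.965). For MAPK10 they were CEP295 (0.968), AKR1B15 (0.960) and EPHA4 (0.954), and for MAPK8IP3 MUC20-OT1 (0.978), GVQW3 (0.977) and PCDHGC4 (0.977). For MAPK8 they were PDE4B (0.930), VEZT (0.923) and ARHGAP5 (0.906), for MAPK9 UBL4A (0.965), CAMLG (0.962) and SMURF2 (0.958), and for MAPK8IP1 PLXNA2 (0.927), TMSB4X (0.924) and TULP4 (0.916). For MAP2K4 they were ATP6V0B (0.958), TSPAN5 (0.957) and USF1 (0.943), and for MAP2K7 STARD8 (0.939), ATXN7L1 (0.933) and USP48 (0.929).

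The other genes of the pathway were followed in lists by role, and their counts on day 24 stand beside 8.01% of all genes called, 4.22% higher and 3.79% lower. Of 14 upstream kinases tested on day 24, which start the chain above MAP2K4 and MAP2K7, none was called between KO and WT, and 8 had a positive difference. MAP4K4 scored 39 and 41 (WT), 80 and 88 (KO#2) and 60 and 80 (KO#10), and was higher in KO by 0.91 (SE 0.17, adjusted p = 0.0246), short of 2-fold, as was MAP3K12, a kinase of axon stress responses, at 0.87 (adjusted p = 0.0397). Of 9 other scaffolds and adaptors, 1 was called lower. This was GADD45A, a stress-induced protein that can bind a kinase upstream of JNK, with 14 and 24 (WT), 5 and 3 (KO#2) and 9 and 6 (KO#10) (-1.60, SE 0.40, adjusted p = 0.0417). GADD45A met the filter of day 24 only through WT libraries, the group with the higher scores, so that this difference is a description. On day 12 its order was the reverse, with 8 and 8 in WT and 12 to 17 in KO. SPAG9, which encodes JIP4, a relative of JIP3, scored 33 and 27 (WT), 90 and 85 (KO#2) and 42 and 60 (KO#10), and was not called between KO and WT (1.12, adjusted p = 0.0517).

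Of 4 dual-specificity phosphatases tested, which remove the phosphates from MAP kinases, none was called on day 24. Between the days, where 15.1% of all genes were called in WT and 11.5% in KO, DUSP4 fell from 25 and 29 to 10 and 7 in WT (-1.57, SE 0.30, adjusted p = 0.00367) and from a range of 39 to 53 to one of 4 to 10 in KO (-2.53, SE 0.21, adjusted p = 1.32e-05). DUSP1 was called the other way in WT, with a rise from 4 and 8 to 18 and 10 (1.11, SE 0.35, adjusted p = 0.0311). Of 7 nuclear targets, 1 was called on day 24, namely JUN itself, higher in KO by 1.25 (SE 0.17, adjusted p = 0.0184). JUN also rose between the days by 1.16 in WT (SE 0.27, adjusted p = 0.00887) and 1.08 in KO (SE 0.19, adjusted p = 0.00126). Its day 12 difference was 1.32 (SE 0.27, adjusted p = 0.132). On day 12 JUN met the filter only through KO libraries, the group with the higher scores, so that this difference is a description. Of 9 other targets, 3 were called higher in KO on day 24 (4.22% of all genes were), namely MAP2 (3.60, SE 0.94, adjusted p = 0.0471), MAP1B (1.92, SE 0.42, adjusted p = 0.0322) and STMN3 (1.34, SE 0.25, adjusted p = 0.0236). These encode microtubule proteins of neurons, and MAP2 is also among the 12 neuron markers summed above.

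Of 8 motor and cargo partners of the JIPs, none was called on day 24, although all 8 had a positive difference. Their median was 0.59, where the median of all genes was 0.01. KIF5A, with 9 and 6 in WT against 8 to 23 in KO, met the filter only through KO libraries, so that its sign is a description. The smallest p was that of KLC1, a kinesin light chain to which JIP1 and JIP3 bind, with 44 and 35 (WT), 77 and 77 (KO#2) and 51 and 64 (KO#10) (0.74, SE 0.20, adjusted p = 0.0520). Of 12 other MAP kinases, MAPK11 (1.88, SE 0.49, adjusted p = 0.0464) and MAPK15 (1.33, SE 0.29, adjusted p = 0.0322) were called higher in KO. Both were low, MAPK11 at 6 and 1 in WT against 9 to 15 in KO, and MAPK15 at 3 and 3 against 7 to 12. Both met the filter only through KO libraries, the group with the higher scores, so that these differences are a description. On day 12 none of the genes tested in these 7 lists was called between KO and WT.

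**Figure D5:**
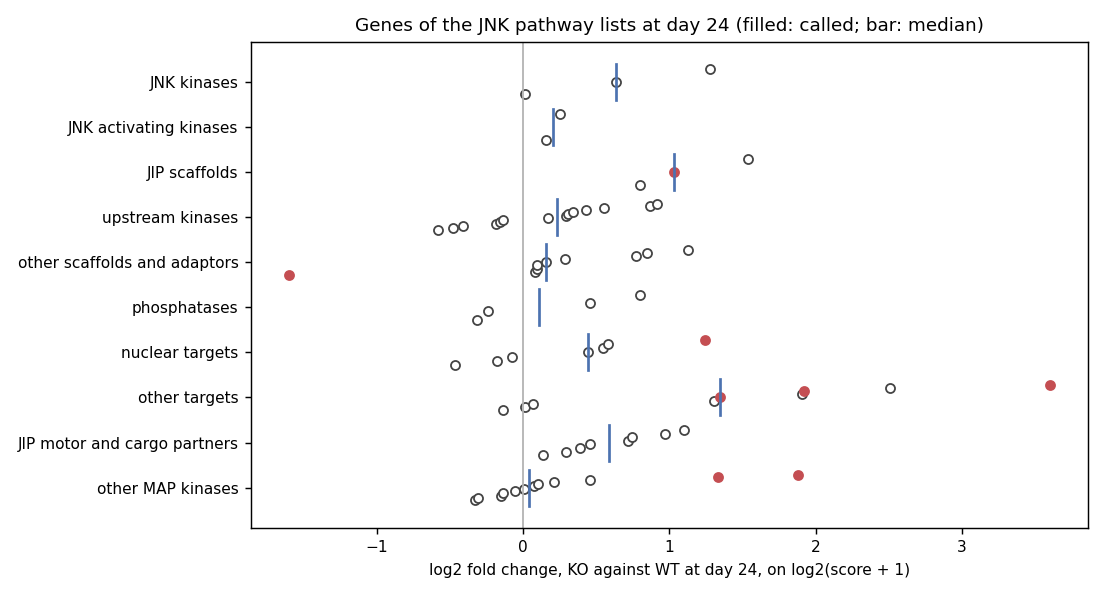
Log2 fold change of KO against WT on day 24 (horizontal axis, on log2 (score + 1)) for each tested gene of the 8 described and of 7 further pathway lists, 1 point a gene. Filled points passed the call rule and bars mark each list's median. GADD45A at -1.60 is the only filled point below 0. It met the filter only through WT libraries. MAPK8IP2, SH3RF1, MAPKBP1, GADD45G, DUSP8, MAPT, KIF5A, MAPK11 and MAPK15 met it only through KO libraries. These points all lie above 0 and enter the medians of their lists.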

How the data were processed

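Strand-specific libraries of ribosomal RNA-depleted RNA from pooled COs were sequenced. Per the labels and file headers, the authors deposited a whole-number score per gene for each of 12 libraries. The submitters' processing notes name bcl2fastq, Bowtie2 and RSEM without versions and the mouse build mm10, although the identifiers are human and 5 of the 8 intervals equal those of GENCODE 29 (GRCh38). The normalization and the use of strand in counting are not given in the sources used here, and no counting interval can be given.

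Scores were tested as log2 (score + 1) with limma 3.58.1 (R 4.3.3), with a variance trend, over genes at 10 or more in at least 2 libraries of a comparison. The design allowed for a count model, which the scores did not permit. P-values were adjusted by Benjamini-Hochberg over all genes tested, and a call needed an adjusted p under 0.05 and 2-fold. KO against WT was fitted within a day. Day changes and the interaction were fitted over all 12 libraries in 4 groups, and the clones in fits of 3 lines. The fit was checked on simulated data. The genes named are the 8, JUN, genes of the pathway lists that were called or had the smallest p, a few list genes chosen after their values were seen (SPAG9 and MAP3K12), the overlapping genes PTPN13, ARHGAP24, CHKB and NME3, and the 3 genes most like each of the 8. Cell type markers are given as sums. The 8 genes and all lists were chosen with earlier results of these data known. Libraries of 1 replicate number deviated together on day 12 (r over genes of 0.459, 0.428 and 0.598 for the 3 pairs of lines), and the labels give these numbers, which therefore were taken as pairs on that day. The tests of KO against WT were fitted without this block, as the design states, and the blocked values of day 12 are given beside them. Tables and figures used Python 3.11.15, pandas 2.3.3 and matplotlib 3.10.9.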

Additional observations from a re-analysis of the deposited data

Results flagged for a closer look

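GADD45A and STMN3 were the genes of the pathway lists whose KO to WT difference differed between the days by the test of the interaction itself. They were 1 of 11 other scaffolds and adaptors and 1 of 9 other targets tested there, where 1.31% of 9952 genes were called. For GADD45A the interaction was -2.37 (SE 0.44, adjusted p = 0.0328), with a rise of 1.10 between the days in WT (adjusted p = 0.0380) and a fall of -1.26 in KO (adjusted p = 0.00273). GADD45A met the filter only through WT of day 24 and KO of day 12, the groups with its higher scores, so that these values are a description. For STMN3, which scored 11 and 6 in WT on day 12 and 15 and 10 on day 24, against 4 to 6 and then 24 to 41 in KO, the interaction was 1.97 (SE 0.39, adjusted p = 0.0367).

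In 4 of the 50 groups of 4 KO libraries examined, 1 library lay far from the other 3, measured as its gap to the nearest divided by the range of the group. Chance gives about 1 in 20 such groups. The ratio was 0.857 for DUSP1 on day 24, where KO#2 replicate 1 scored 29 against 15 to 17, and 0.863 for MAP2 on day 12, where KO#2 replicate 1 scored 149 against 193 to 200. It was 1.0 for MAPK11 on day 12, where KO#10 replicate 2 scored 10 against 8, and 0.833 for MAPK11 on day 24, where KO#10 replicate 1 scored 9 against 14 and 15. None of the 8 genes met this measure.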

How the results depend on the processing

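Of 900 fold changes of the 8 genes under the alternatives, 867 kept their direction and their side of the call rule, 5 became calls, 11 ceased to be calls and 17 changed sign, all 17 uncalled and on leaving out a library. The cause of these changes was not tested. With a pseudocount of 5, the 8 genes had 0 calls in place of 1 in KO against WT on day 24 and 1 in place of 2 in the day change of WT, and calls over all genes went from 1498 to 983 in WT and from 1141 to 691 in KO between the days. With the replicate number as a block, calls among the 8 genes in the day change of KO went from 1 to 2 (MAPK10), calls over all genes on day 12 from 8 to 71 and in the interaction from 130 to 315, and no other call among the 8 changed. On day 24 the numbers did not pair the libraries (r of 0.212, -0.106 and 0.346). For KO against WT on day 12, calls over all genes were 3 without a filter on low values, 16 without a variance trend and 1 with the clones as separate groups. With unadjusted p-values, the 8 genes had 2 calls in KO against WT on day 24 and 1 in the interaction, and all genes had 145 calls on day 12, 964 in the interaction, and 7 and 79 between the clones on day 12 and day 24. Ranking by Spearman's rho kept 5 of the 24 most similar genes.

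Leaving out 1 library at a time gave 0 to 2 calls among the 8 genes in KO against WT on day 24, 0 to 3 in the day change of WT and 0 to 1 in the interaction. Over all genes it gave 1 to 4 calls on day 12, 2 to 1346 on day 24 (2 without WT replicate 2, 1346 without KO#10 replicate 1), 809 to 1573 in the day change of WT, 11 to 916 in the interaction and 0 to 2 between the clones on day 24. The fold changes that changed sign ranged as follows. In KO against WT on day 12, MAPK9 ranged from -0.0748 to 0.0192, MAPK10 from -1.59 to 0.0250, MAP2K4 from -0.12 to 0.0167 and MAPK8IP1 from -0.48 to 0.11. On day 24, MAPK9 ranged from -0.0495 to 0.0817. In the day change of WT, MAPK8 ranged from -0.0830 to 0.46 and MAPK8IP1 from -0.42 to 0.17, and in the interaction MAPK9 from -0.025 to 0.11. Between KO#2 and KO#10 on day 12, MAPK10 ranged from -1.23 to 0.19, MAP2K4 from -0.11 to 0.0352, MAPK8IP1 from -0.0535 to 0.29 and MAPK8IP3 from -0.23 to 0.37, and on day 24 MAP2K4 from -0.0205 to 0.35. Where this left 1 library in a group, it was assumed to vary like the others. MAP2K7 would be called lower in WT without WT replicate 2 of day 12 (-1.01) or of day 24 (-1.02). The depth behind the scores is unknown, and scores as low as those of MAPK8IP2 on day 12 were not resolved further.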
